A study of Mus musculus with 14 samples.

Results

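Lungs of mice given carbonized carbon fibre (CCF) were compared with lungs of mice given virgin carbon fibre (VCF). The members were chosen by the group name in the sample titles, which gave 3 CCF and 4 VCF arrays, 7 of the 14 arrays of the study. CCF is fibre taken after the carbonization step of recycling and VCF is fibre that had not been recycled. Every mouse of both groups was a male C57BL/6N mouse that had received 200 µg of fibre through the trachea, and the lung was taken 6 months later. The 3 Ctrl mice had received phosphate-buffered saline, the vehicle, and their values stand beside the comparison. The 4 RCF mice, given fibre after the firing step, entered only the shared estimate of the spread. The design text calls the samples of each group independent, and each array held total RNA of 1 lung. The labels give no age of the mice, no fibre length or coating and no measure of how much fibre was still in the lung.

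Carbon fibre is a thin filament made by heating a polymer, and most of it is used embedded in resin. Thermal recycling first chars the resin without air and then burns the char off in air, so carbonized fibre is an intermediate product that may still carry char. In the lung, alveolar macrophages take up deposited particles. Neutrophils and monocytes enter from the blood in acute inflammation, eosinophils enter under type 2 cytokines such as interleukins 4, 5 and 13, and fibroblasts lay down collagen where injury persists. Whole-lung RNA mixes all of these cells, so fewer cells of a type and less RNA per cell cannot be told apart in any result below.

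Levels are log2 of the processed signal minus the array's own 75th percentile, so 0 marks a probe as bright as that percentile. Differences are CCF minus VCF on that log2 scale, with the standard error (SE) from limma. The 75th percentile was 738 to 1136 intensity units on the CCF arrays and 725 to 1253 on the VCF arrays. No spot was saturated, and all pairs of the 7 arrays correlated at 0.972 to 0.987 over the tested probes. The labelled tissue was checked against its markers, and all 13 tested alveolar type 2 genes, among them the surfactant genes Sftpc and Sftpa1, were well above background on all 14 arrays. Fewer probes were well above background on CCF arrays (25968 to 27294) than on VCF arrays (27404 to 28323), and the groups did not overlap. The Ctrl arrays had 26093 to 28593 such probes, a range that spans both. The arrays lay on 4 slides, each scanned in its own session, and slides 1, 3 and 4 each held 1 CCF and 1 VCF array, which gives 3 differences within a slide. The probes well above background numbered 25968 on the CCF and 27694 on the VCF array of slide 1, 27294 and 28243 on those of slide 3, and 26483 and 27404 on those of slide 4. The fourth VCF array had no CCF partner on its slide.

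No gene passed the test between CCF and VCF. Over 29269 probes tested, 0 passed a Benjamini-Hochberg adjusted p under 0.05 in limma (0% higher and 0% lower in CCF), and the smallest adjusted p was 0.709. At an unadjusted p under 0.05 there were 1699 probes (5.8%), of which 1350 were lower (4.61%) and the rest higher (1.19%) in CCF, where 1463 would be expected with no difference. With 1 array left out, 1 unnamed probe passed without CCF replicate 2 (difference -2.06, adjusted p = 0.0297) and 1 without RCF replicate 2 (-2.24, adjusted p = 0.00761), both lower in CCF. The differences were small: the median over all probes was -0.02, and 90.02% of probes lay within 0.5 of 0. Differences larger than 1 in size were found for 569 probes. The names and values that follow therefore describe these 7 lungs and are not calls.

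A separation of all arrays of both groups was seen more often in the lower direction. Every CCF array lay below every VCF array for 1169 probes (3.99% of those tested) and above every VCF array for 375 (1.28%). Among the 14468 genes, each read at its brightest probe, the counts were 376 (2.6%) lower and 178 (1.23%) higher. With no difference, 1 in 35 would fall in each of these orders. For the genes, both shares were below that. For all probes, the lower share was above it and the higher share below it. With the probes cut into 10 equal bins of mean signal, lower probes were the more numerous in each bin, with 5.67% lower against 1.40% higher in the fourth bin from the dim end and 2.73% against 0.41% in the brightest bin. Under normexp background correction 346 of 29269 probes lay lower and 147 higher, each fewer than 1 in 35.

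**Figure D1:**
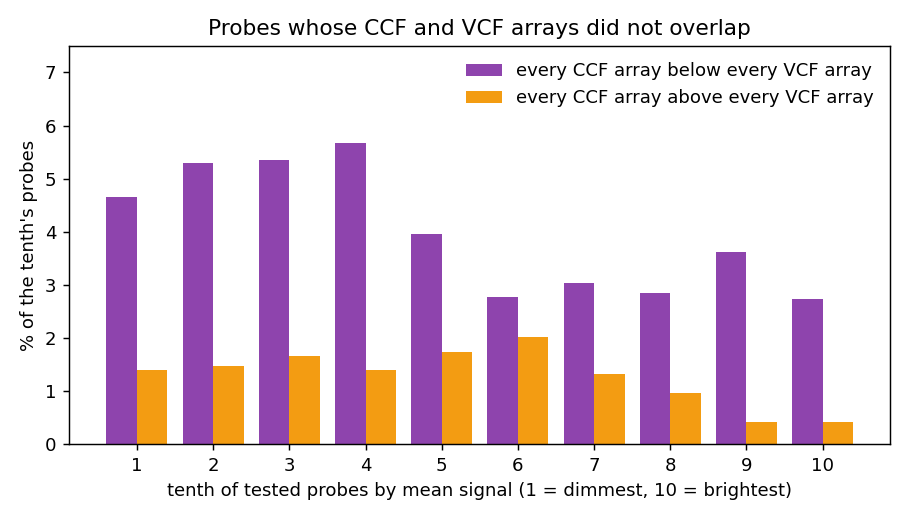
Share of tested probes (percent, vertical axis) whose 3 CCF arrays all lay below (purple) or all above (orange) the 4 VCF arrays, in 10 equal bins of mean signal from dim to bright (horizontal axis). The purple bar is the taller in every bin, at most 5.67%.

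The excess of lower over higher probes lay mainly in probes without a gene symbol. A symbol was given only where the probe's accession matched a RefSeq transcript, so a probe without one can still lie in a known gene. Of 8455 such probes, 679 (8.03%) had every CCF array below every VCF array and 75 (0.887%) had it above, and their median difference was -0.10. Of 20814 probes with a symbol, 490 (2.35%) were lower and 300 (1.44%) higher in this sense, with a median of 0.00. The largest group among the unnamed probes was designed on RIKEN full-length cDNA clones of mouse, many of which are transcripts without an assigned protein. For these 4089 RIKEN cDNA probes, a group picked out after its values were seen, the median was -0.18, and 500 (12.2%) lay lower and 23 (0.562%) higher. Under normexp 181 (4.43%) lay lower and 5 (0.122%) higher, with a median of -0.71 for these probes and -0.13 for those with a symbol.

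Set against the probes with a symbol on the same array, the RIKEN cDNA probes averaged -3.18, -2.91 and -3.06 on the 3 CCF arrays. The 4 VCF arrays gave -2.85, -2.64, -2.81 and -2.85, and the 3 Ctrl arrays -3.34, -2.95 and -2.97. All CCF arrays thus lay below all VCF arrays, and 2 of the 3 lay inside the Ctrl range. The median of these probes was 0.01 in CCF minus Ctrl and 0.18 in VCF minus Ctrl, 2 differences that share the Ctrl arrays. Within slides the CCF minus VCF median was -0.35 on slide 1, -0.23 on slide 3 and -0.05 on slide 4, against 0.05, -0.03 and -0.01 for the probes with a symbol. The share with every CCF array lower ran from 5.42% of the brightest RIKEN cDNA probes to 16.1% of those with a mean level of -5 to -3. Among probes with a symbol in the same bins it was 3.11% and 1.98%. Beside this, 70.4% to 80.0% of the RIKEN cDNA probes were well above background on CCF arrays and 83.2% to 91.0% on VCF arrays. Among the 2437 of them that were well above background on all 14 arrays, 309 (12.7%) lay lower and 15 (0.616%) higher, with a median of -0.12.

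**Figure D2:**
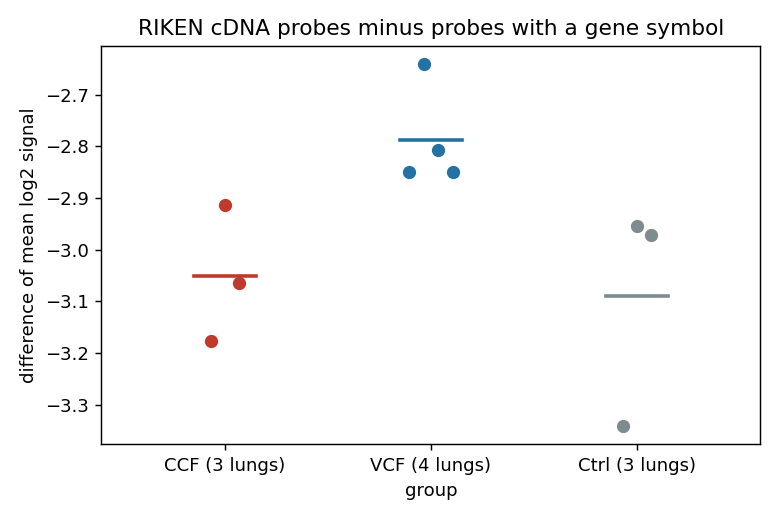
Mean log2 signal of 4089 RIKEN cDNA probes minus the mean of 20814 probes with a gene symbol on the same array (vertical axis), by group, with a point per lung and a bar at the group mean. The 3 CCF lungs lie at -3.18 to -2.91 and the 4 VCF lungs at -2.85 to -2.64.

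Kcnq1ot1, a long noncoding RNA that stays in the nucleus and silences neighbouring genes, was among the 376 genes (2.6%) lower on every CCF array. It was picked after its values were seen, other noncoding RNAs were not counted, and a link to the RIKEN cDNA probes was not tested. It stood at -2.29, -2.03 and -2.57 in CCF lungs, against -1.72, -1.04, -1.45 and -1.40 in VCF lungs. The groups did not overlap, and the difference was -0.89 (SE 0.32, limma adjusted p = 0.751). Ctrl lungs ran from -3.18 to -1.69, so VCF minus Ctrl was 0.93 and CCF minus Ctrl 0.04.

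Genes were ranked by unadjusted p at their brightest probe, among those with all arrays apart and the brighter group well above background on all its arrays. The lower ones in CCF were led by Gulp1, an adaptor protein for the engulfment of dying cells. Its level was 0.64, 0.91 and 1.08 in CCF lungs, against 1.47, 1.71, 1.76 and 1.43 in VCF lungs. No CCF lung reached a VCF lung, and the difference was -0.72 (SE 0.13, limma adjusted p = 0.709). Ctrl lungs were at 1.02 to 1.25, and the other Gulp1 probe gave -0.06 (SE 0.15). Nexn, an actin-binding protein of muscle cells, stood at 1.54, 1.49 and 1.55 in CCF lungs, against 1.94, 2.00, 2.10 and 1.93 in VCF lungs. The 3 CCF values for Nexn lay within the Ctrl range of 1.46 to 1.65, and the difference was -0.47 (SE 0.10).

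Edil3, a matrix protein that binds integrins, stood at -0.12, -0.13 and -0.40 in CCF lungs, against 0.33, 0.27, 0.46 and 0.40 in VCF lungs. This was a difference of -0.58 (SE 0.15), while its dimmer probe gave 0.08. B3gnt5, the enzyme that starts the chains of lacto-series glycolipids, stood at -2.38, -2.44 and -2.58 in CCF lungs, against -1.99, -1.78, -1.70 and -2.18 in VCF lungs. Its difference was -0.56 (SE 0.14), with every CCF lung the lower. Zfp958, a zinc finger gene, differed by -0.71 (SE 0.19), and Fam76b by -0.44 (SE 0.12). Fam76b too was read lower at its brightest probe only, with -0.08 at the other. Ccdc122 differed by -0.84 (SE 0.22) and Tmigd1, a cell adhesion protein, by -0.89 (SE 0.22).

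Several lower genes were near background. Olfr788, an olfactory receptor gene, and Fbxw13, an F-box protein gene, were well above background in 4 of 4 VCF lungs and 0 of 3 CCF lungs. Their signal was at least 1.31-fold and at least 1.29-fold higher in VCF, bounds taken against the lowest signal well above background on each CCF array. By size of difference the list added Unc5d, a netrin receptor, and Cntn2, an adhesion protein of neurons, both also well above background on 0 of 3 CCF arrays. VCF was at least 1.12-fold higher for Unc5d and at least 1.60-fold higher for Cntn2. Slc13a1, a sulphate transporter, stood at -5.51, -8.29 and -8.57 in CCF lungs, against -5.46, -5.16, -4.76 and -4.98 in VCF lungs. The first CCF lung was thus close to the VCF lungs, and the difference of -2.37 (SE 0.96) rested on the other 2. Olfr1402 differed by -0.99 (SE 0.42), where CCF replicate 2 stood at -8.01 and the other 6 lungs at -5.75 to -5.44. The smallest p of all probes was that of Ldhc, the lactate dehydrogenase of the testis, at -1.57 (SE 0.24). Ldhc fell outside the rule for naming genes and was well above background in 0 of 3 CCF and 3 of 4 VCF lungs, for which VCF was at least 1.06-fold higher.

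On the higher side, Gbp5, an interferon-induced GTPase that promotes inflammasome assembly, was among the brighter genes. It stood at -1.01, -0.98 and -0.91 in CCF lungs, against -1.90, -1.83, -1.29 and -1.60 in VCF lungs. All CCF lungs also lay above the Ctrl range of -1.57 to -1.33, and the difference was 0.69 (SE 0.20, limma adjusted p = 0.709). Notch1, a receptor in cell fate and vessel growth, stood at -1.61, -1.20 and -1.09 in CCF lungs, against -1.97, -1.69, -2.13 and -2.05 in VCF lungs. Its difference was 0.66 (SE 0.19), and Ctrl lungs were lower than both groups, at -2.55 to -2.40. Within slides Notch1 differed by 0.07, 1.04 and 0.77.

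Wdr70 differed by 0.53 (SE 0.15), Ccdc85a by 0.53 (SE 0.16) and Ttll1, an enzyme that adds glutamate chains to tubulin, by 0.36 (SE 0.11). For these 3 genes every CCF lung lay above every VCF lung, and the second Ttll1 probe gave 0.31. The dimmest of the higher genes were Nxph1, a secreted ligand of neurexins, at 1.48 (SE 0.40), 4931414P19Rik at 0.79 (SE 0.22) and Zfp385b at 0.68 (SE 0.17). The dimmer Zfp385b probe gave 0.09 (SE 0.27). Steap3, an iron reductase of endosomes, differed by 0.53 (SE 0.15) and Proser3 by 0.46 (SE 0.13). The direction of these 5 turned round under normexp background correction relative to the median of all probes, to values between -0.14 and -0.33.

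By size, the higher genes added Acod1, which makes itaconate in activated macrophages, and Cxcr2, the neutrophil receptor for CXC chemokines. Acod1 stood at -2.49, -2.99 and -1.40 in CCF lungs, against -4.25, -3.87, -3.39 and -3.13 in VCF lungs. Cxcr2 stood at -0.74, -0.31 and 0.13 in CCF lungs, against -0.95, -2.11, -0.95 and -1.38 in VCF lungs. Neither pair of groups overlapped. Ctrl lungs covered -5.51 to -1.07 for Acod1, a range that held both groups. For Cxcr2 they covered -3.13 to -0.76, a range that held the VCF lungs, and all CCF lungs lay just above it. The differences were 1.37 (SE 0.79) and 1.03 (SE 0.60), and the second Cxcr2 probe gave 1.25 with all arrays apart. Mrgpra2b, a receptor of the Mas-related family, differed by 1.19 (SE 0.67).

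**Figure D3:**
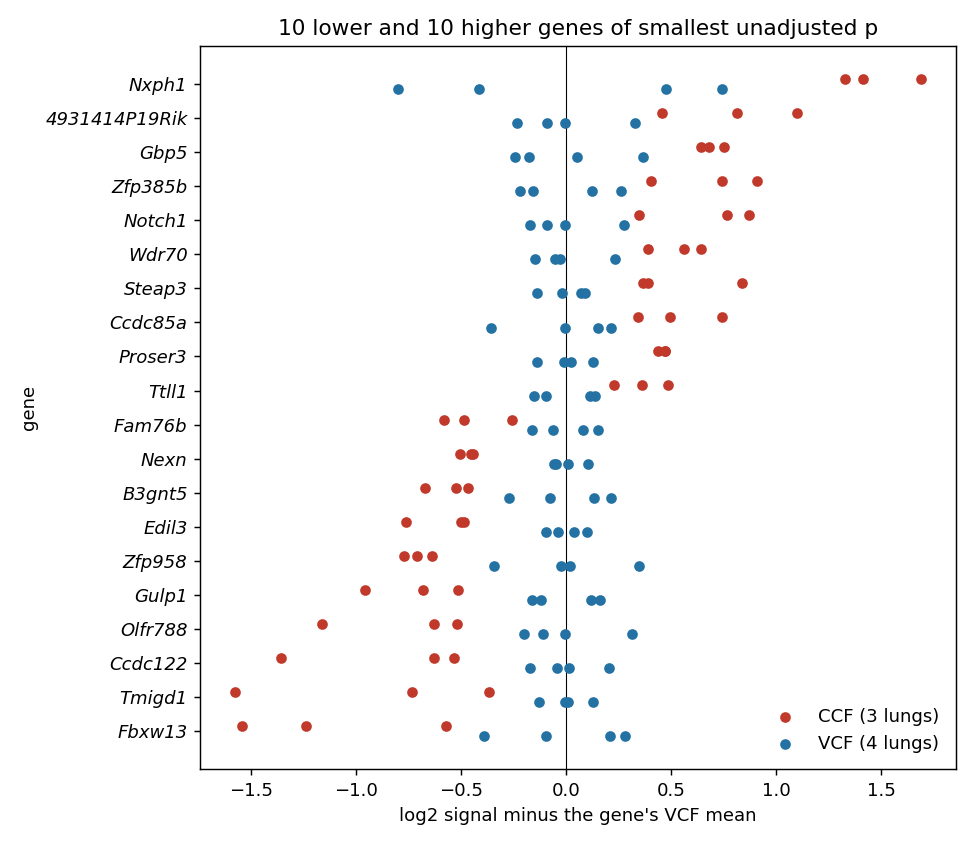
Log2 signal minus the gene's VCF mean (horizontal axis) in 3 CCF lungs (red) and 4 VCF lungs (blue) for the 10 lower and 10 higher genes of smallest unadjusted p (vertical axis), among genes with all arrays apart at their brightest probe and the brighter group well above background on all its arrays. The groups do not overlap because the genes were picked that way. Differences run from -1.12 for Fbxw13 to 1.48 for Nxph1.

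Among 48 gene lists of cell types, neighbouring tissues and pathways, that of eosinophils had its genes lower in CCF. Of 9 genes 6 could be tested, and all 6 had a negative difference (52.8% of all genes were negative and 47.2% positive), with a median of -0.68 against -0.01 over all 14468 genes. The mean over the 6 genes, relative to the VCF mean, was -0.94, -0.73 and -0.71 in CCF lungs, against -0.24, -0.30, 0.20 and 0.35 in VCF lungs. This was the only list whose CCF lungs all lay below the VCF lungs, and 1 list had them all above. With no difference, 1 list in 35 would fall in each of these orders, and 48 lists were read. A single list apart in each direction is therefore no more than that share would give. Ctrl lungs ran from -0.55 to 0.09. The list's median was -0.63, -0.86 and -0.59 within slides 1, 3 and 4, and it stayed between -1.17 and -0.53 under all 30 alternative settings. None of the 6 genes passed over all probes, and 3 had an unadjusted p under 0.05, against 3.86% of all genes. Epx, the eosinophil peroxidase, was well above background on 0 of the 14 arrays, and Prg3, a granule protein, on 0 of 3 CCF and 0 of 4 VCF arrays. Cebpe had no probe matched here. The signal of this list thus comes without 2 of its defining granule genes.

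Ear6, an eosinophil-associated ribonuclease, stood at -2.61, -2.88 and -3.23 in CCF lungs, against -2.38, -2.50, -2.33 and -2.21 in VCF lungs. The groups did not overlap, the difference was -0.55 (SE 0.18, limma adjusted p = 0.724), and Ctrl lungs were the highest, at -2.14 to -1.76. Il5ra, the receptor chain through which interleukin 5 keeps eosinophils alive, stood at -7.61, -6.12 and -6.52 in CCF lungs, against -5.70, -6.46, -4.89 and -5.64 in VCF lungs. It was well above background in 0 of 3 CCF and 3 of 4 VCF lungs, and VCF was at least 1.51-fold higher. VCF replicate 2 lay inside the CCF range. Alox15, a lipoxygenase of eosinophils and resident macrophages, stood at -7.17, -5.76 and -6.52 in CCF lungs, against -4.57, -5.79, -5.95 and -4.99 in VCF lungs. Its groups overlapped and the difference was -1.16 (SE 0.42), with signal well above background in 1 of 3 CCF and 4 of 4 VCF lungs.

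Ccr3, the eotaxin receptor, differed by -0.73 (SE 0.56), Prg2, the major basic protein, by -0.63 (SE 0.82), and Siglecf, a lectin of eosinophils and alveolar macrophages, by -0.61 (SE 0.51). These 3 overlapped between the groups. Siglecf rested on CCF replicate 2, and without it the difference was 0.15. Il4, the type 2 cytokine of another list, stood at -4.66, -5.08 and -4.64 in CCF lungs, against -3.99, -4.46, -3.03 and -4.20 in VCF lungs. All CCF lungs lay below all VCF lungs, a difference of -0.87 (SE 0.33, limma adjusted p = 0.762), negative on all 3 slides. Il13, the other type 2 cytokine measured beside it, differed by 0.19 (SE 0.32).

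**Figure D4:**
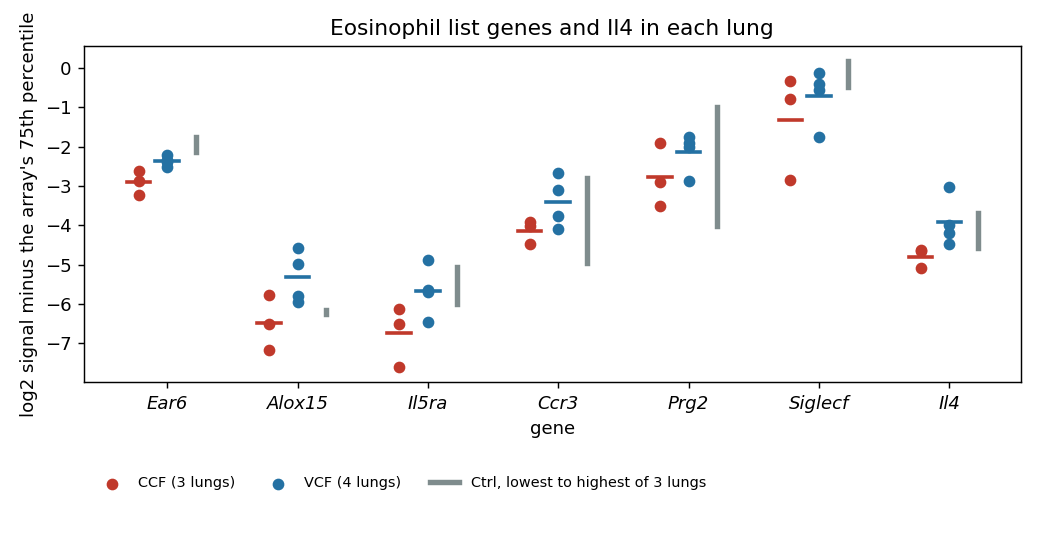
Level of 6 eosinophil list genes and Il4 (log2 signal minus the array's 75th percentile, vertical axis) in 3 CCF lungs (red points) and 4 VCF lungs (blue points), each with its mean as a bar, and the range of 3 Ctrl lungs (grey line). CCF and VCF points are apart for Ear6 and Il4 and overlap for the other 5 genes.

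The promoters of Ear6, Il5ra and Il4 are shown because Ear6 and Il4 had all arrays apart and Il5ra was well above background in VCF lungs alone of the 2 groups. They were matched to RefSeq promoters on GRCm38.p6. The sequences run 5′ to 3′ on the gene's strand, across the start of transcription, and capitals mark 2 motifs. These are GATAA, the core read by GATA factors of the eosinophil lineage, with its reverse complement TTATC, and TTC and GAA set 4 bases apart, a form of site bound by STAT6 downstream of interleukin 4, which is its own reverse complement. Il4 is shown at the start at chr11:53618616-53618915 on the minus strand, Il5ra at chr6:106748988-106749287 on the minus strand and Ear6 at chr14:51853518-51853817 on the plus strand.
Ear6: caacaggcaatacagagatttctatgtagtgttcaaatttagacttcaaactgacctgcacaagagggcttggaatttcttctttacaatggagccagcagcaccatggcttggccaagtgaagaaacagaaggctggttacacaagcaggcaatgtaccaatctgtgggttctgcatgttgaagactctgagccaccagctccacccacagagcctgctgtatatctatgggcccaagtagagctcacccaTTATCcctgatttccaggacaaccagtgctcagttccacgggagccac
Il5ra: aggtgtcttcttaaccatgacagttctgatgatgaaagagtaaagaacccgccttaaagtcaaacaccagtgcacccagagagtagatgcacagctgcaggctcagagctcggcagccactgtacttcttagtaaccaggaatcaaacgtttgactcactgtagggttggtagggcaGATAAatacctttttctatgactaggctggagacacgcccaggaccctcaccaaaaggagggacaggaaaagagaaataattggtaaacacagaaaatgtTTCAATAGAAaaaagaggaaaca
Il4: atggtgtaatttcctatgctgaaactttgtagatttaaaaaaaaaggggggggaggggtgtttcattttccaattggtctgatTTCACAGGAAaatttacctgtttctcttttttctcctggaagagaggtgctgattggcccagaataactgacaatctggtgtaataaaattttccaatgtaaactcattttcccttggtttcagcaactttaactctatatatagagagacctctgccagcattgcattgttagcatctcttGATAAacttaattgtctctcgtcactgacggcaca
Ear6 held 1 GATAA motif and 0 of the STAT6 type, while Il5ra and Il4 held 1 of each, with no overlap between them. Of 32851 promoters of 300 bases, 25.4% held GATAA on either strand and 6.95% held the STAT6 type. A second Il4 start in the table held neither. The matches describe letters in these windows, and Alox15, Prg2 and Cebpe were not among the promoters.

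Other lists with medians below -0.15 (CCF minus VCF) were those of red blood cells, immediate early genes, glucocorticoid response genes and alveolar macrophages. The glucocorticoid response list had 10 of 15 genes negative and a median of -0.20, which ran from -0.31 to 0.29 over the alternative settings. All 10 tested red blood cell genes had a negative difference, median -0.60, and 0 of them passed. The list mean was 0.23, -0.86 and -1.03 in CCF lungs, against -0.33, 0.08, -0.02 and 0.26 in VCF lungs, so CCF replicate 1 lay among the VCF lungs. Ctrl lungs ran from -1.64 to -0.66, a range that held CCF replicates 2 and 3. The list's median was 0.40 in CCF minus Ctrl and 1.02 in VCF minus Ctrl, 2 differences that share the Ctrl arrays. Within slide 1 the CCF minus VCF median was 0.38, and without CCF replicates 2 and 3 and VCF replicate 1 it was 0.12. Kel, a blood group protein, differed by -1.16 (SE 0.62) and was well above background in 1 of 3 CCF and 2 of 4 VCF lungs.

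Immediate early transcription factor genes, which are induced within minutes of a stimulus, had a median of -0.23, and 14 of 17 were negative. Egr1 stood at 1.99, 2.33 and 2.33 in CCF lungs, against 3.02, 2.95, 2.82 and 2.93 in VCF lungs. The groups did not overlap, the difference was -0.71 (SE 0.31), and the Ctrl range of 1.36 to 3.00 covered both. Egr2, of the same zinc finger family, differed by -0.50 (SE 0.20) with all arrays apart, and Ier2 by -0.48 (SE 0.24). Under normexp relative to the median of all probes the list median turned to 0.14, and it was 0.04 within slide 4.

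Alveolar macrophage genes were negative in 15 of 19, with a median of -0.18, which turned to 0.18 under normexp relative to the median of all probes and was 0.13 within slide 1. Ear1, a ribonuclease of alveolar macrophages, stood at 3.71, 3.35 and 2.88 in CCF lungs, against 3.70, 3.75, 3.98 and 4.17 in VCF lungs. Its groups touched, at a difference of -0.58 (SE 0.19), and Ctrl lungs were at 4.15 to 4.30. Fabp1, a fatty acid carrier, differed by -0.57 (SE 0.20), and Il18, a cytokine released by the inflammasome, by -0.34 (SE 0.17). Il18 turned positive, to 0.09, under normexp relative to that median. Pparg, which directs the identity of these cells, differed by -0.17 (SE 0.10) and the chitinase-like Chil3 by -0.17 (SE 0.15), and these 2 turned positive in the same way.

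In the killer lymphocyte list 13 of 14 genes had a positive difference, with a median of 0.27. Prf1, the pore-forming perforin, stood at -0.87, -1.50 and -0.89 in CCF lungs, against -2.12, -2.45, -1.61 and -1.97 in VCF lungs. The groups did not overlap and the difference was 0.96 (SE 0.32, limma adjusted p = 0.733), positive on all 3 slides. Tbx21, the transcription factor T-bet, differed by 0.54 (SE 0.29), and Eomes, its relative, by 0.60 (SE 0.38). The list median was -0.41 within slide 3, where the VCF lung had the highest list mean of the 7.

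Mature T cell genes were positive in 14 of 16, median 0.29, and the median was -0.0085 within slide 3. B cell genes were positive in 5 of 13, median -0.06. Lck, the kinase at the T cell receptor, stood at 0.92, 0.85 and 1.12 in CCF lungs, against 0.23, 0.08, 0.53 and 0.62 in VCF lungs. All CCF lungs were above all VCF lungs, at a difference of 0.60 (SE 0.26), but Ctrl lungs ran from -0.17 to 0.98. Zap70, the next kinase of that receptor, differed by 0.32 (SE 0.15) and Cd8a, the co-receptor of cytotoxic T cells, by 0.55 (SE 0.28). Beside these, the mean of thymus genes was high in CCF replicates 2 and 3 but not in replicate 1. Of 9 thymus genes 5 could be tested, of which Tcf7 is also in the T cell list. Their mean relative to VCF was -0.01, 1.24 and 2.40 in CCF lungs and -0.09 to 0.08 in VCF lungs. The largest differences were those of Rag1 and Dntt, while Tcf7 differed by 0.33, Themis by 0.27 and Cd1d1 by -0.30. The part of thymus tissue in the T cell values was not tested.

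Rag1, which cuts DNA for receptor rearrangement in immature lymphocytes, stood at -8.10, -4.14 and -0.93 in CCF lungs, against -8.50, -8.49, -8.73 and -8.89 in VCF lungs. It was well above background in 2 of 3 CCF and 0 of 4 VCF lungs, and CCF was at least 4.90-fold higher on average. Leaving out CCF replicate 3 lowered that bound to 1.48, and leaving out CCF replicate 1 raised it to 17.7. Dntt, which adds bases at those junctions, differed by 1.49 (SE 0.73), carried by CCF replicate 3 at 1.11 and replicate 2 at -1.51, while replicate 1 at -3.22 lay among the VCF lungs. Cd1d1 of the same list differed by -0.30 (SE 0.13). Liver genes were high in CCF replicate 2, with a list mean of 2.09, against 0.16 and -0.54 in the other CCF lungs and -0.67 to 0.62 in VCF lungs. The liver median was 0.81, and -0.27 without that lung. Mup3, a major urinary protein made by liver, stood at -0.18 in that lung, against -3.46 and -4.58 in the other CCF lungs and -4.56 to -2.59 in VCF lungs. Ahsg, another liver protein, differed by 0.90 (SE 0.46) and the transferrin gene Trf by 0.22 (SE 0.16).

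Complement had 14 of 18 positive, median 0.21, with C1s1 at 0.29 (SE 0.12), C1ra at 0.30 (SE 0.15) and their inhibitor Serping1 at 0.30 (SE 0.15). The interferon response had 15 of 20 positive, median 0.15, and its chemokine Cxcl10 differed by 0.88 (SE 0.42), Ifit1 by 0.50 (SE 0.24) and Ifit3 by 0.35 (SE 0.16). In both lists the median was positive under all 30 alternative settings, from 0.06 to 0.65 for complement and from 0.0081 to 0.71 for the interferon response. Within slides 1, 3 and 4 the interferon median was 0.71, 0.09 and 0.07. The list means overlapped between the groups in both lists. Monocyte genes were positive in 10 of 12, median 0.28, where Cx3cr1, the fractalkine receptor, stood at -2.004, -1.74 and 0.33 in CCF lungs, against -2.69, -2.55, -1.38 and -2.10 in VCF lungs. Ccr2, which brings monocytes out of the marrow, differed by 0.63 (SE 0.36). Cx3cr1 differed by 1.04 (SE 0.54), and the dimmer probes gave 0.34 (SE 0.34) for Cx3cr1 and 0.75 (SE 0.43) for Ccr2. CCF replicate 3 was the highest of the 7 lungs for both receptors, and without CCF replicates 2 and 3 and VCF replicate 1 Ccr2 differed by -0.20.

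Neutrophil genes were positive in 9 of 12, median 0.55, and -0.35 within slide 4. The list mean was 0.13, 0.01 and 0.79 in CCF lungs, against 0.11, 0.01, -0.22 and 0.11 in VCF lungs, and up to 1.73 in Ctrl lungs. Mmp9, a gelatinase of neutrophil granules, differed by 0.55 (SE 0.45). Acute phase genes were positive in 11 of 13, median 0.29. Saa2, a serum amyloid, stood at -5.26, -0.83 and -3.11 in CCF lungs, against -5.17, -5.87, -4.11 and -4.09 in VCF lungs, so it was highest in the lung high in liver genes. Lcn2, an iron-trapping protein, differed by 0.64 (SE 0.43) and C3, the central complement protein, by 0.29 (SE 0.19). The dimmer C3 probe gave 0.86 (SE 0.28). Without CCF replicates 2 and 3 and VCF replicate 1 the acute phase median was -0.13.

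**Figure D5:**
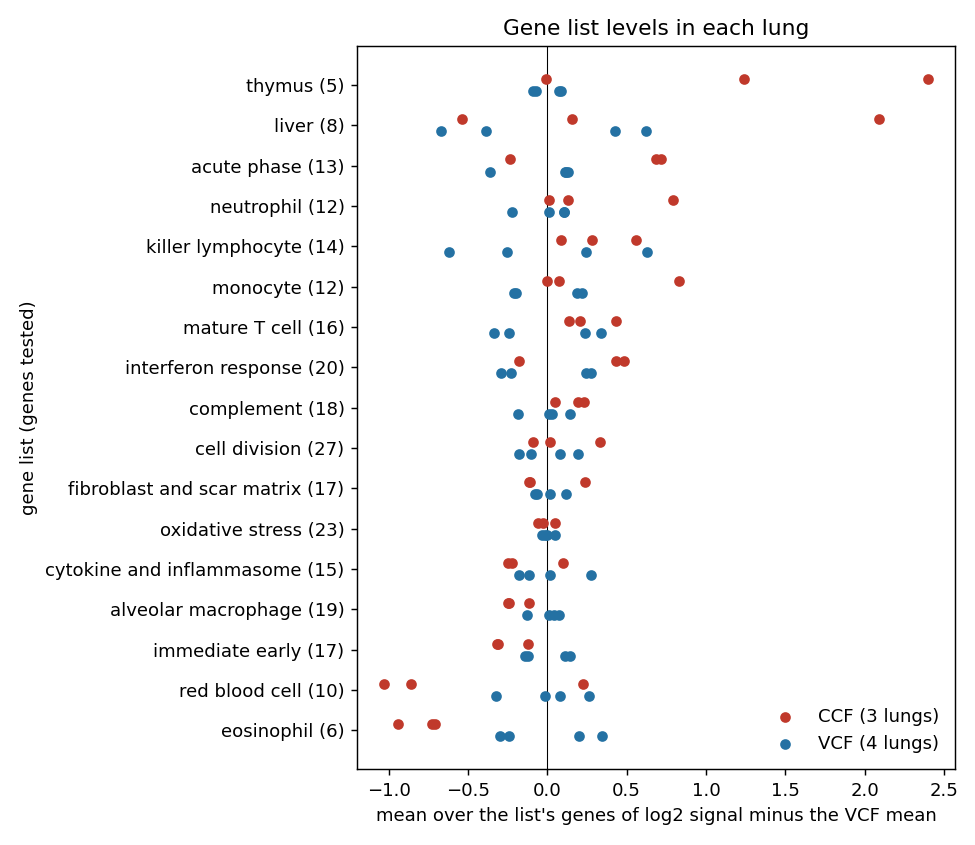
Mean over each list's tested genes of the log2 signal minus the gene's VCF mean (horizontal axis) for 17 gene lists (vertical axis, number of genes tested in brackets), with a red point per CCF lung and a blue point per VCF lung. Eosinophil genes are the only list here with the groups apart, and thymus and liver genes have CCF lungs far to the right, up to 2.40 and 2.09.

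Genes of scarring, oxidative defence and cell division were mixed. Of 17 fibroblast and scar matrix genes 10 were positive and 7 negative, median 0.06, and -0.15 within slide 3. Postn, a matrix protein of remodelling tissue, stood at 3.90, 3.73 and 3.53 in CCF lungs, against 4.04, 3.95, 4.15 and 4.34 in VCF lungs. The groups did not overlap, at -0.40 (SE 0.14), and the value turned to 0.10 under normexp relative to the median of all probes. Eln, elastin, differed by 0.54 (SE 0.28), Spp1, osteopontin, by -0.44 (SE 0.23), and the collagens Col1a1 and Col3a1 by 0.11 (SE 0.26) and 0.03 (SE 0.21). The dimmer probes gave 0.66 (SE 0.23) for Col1a1 and -0.18 (SE 0.22) for Col3a1. Spp1 turned to 0.06 under the same setting.

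Oxidative stress genes were positive in 11 of 23, median -0.04, which turned to 0.51 under normexp relative to the median of all probes and ran from -0.10 to that value over the alternative settings. Prdx1, a peroxidase, differed by -0.34 (SE 0.13) with all arrays apart, although it turned to 0.25 under normexp relative to the median of all probes. Gclm, of glutathione synthesis, differed by 0.39 (SE 0.20) and Gsta3, a glutathione transferase, by -0.45 (SE 0.23). The other Gsta3 probe gave -0.13 (SE 0.12). Hmox1, the inducible enzyme that breaks down haem, differed by 0.12 (SE 0.14). Of 27 cell division genes 16 were positive, median 0.12 (-0.0253 within slide 4), among them Top2a, a DNA topoisomerase, at 0.58 (SE 0.31) and Bub1, a checkpoint kinase, at 0.30 (SE 0.18), both with all arrays apart. The dimmer probes of these genes gave -0.38 (SE 0.62) for Top2a and -0.17 (SE 0.14) for Bub1. Top2a turned to -0.17 under normexp relative to that median, Mcm5, of the replication helicase, differed by 0.35 (SE 0.24), and Mki67, the proliferation marker, by 0.17 (SE 0.23).

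The cytokine and inflammasome list was split, with 7 of 15 genes positive. Il6 stood at -4.98, -3.56 and -3.43 in CCF lungs, against -3.68, -2.23, -1.86 and -3.16 in VCF lungs, which overlapped at a difference of -1.26 (SE 0.58). In a panel of 20 genes of particle response, clock and metabolism, 10 were positive and 10 negative, from -0.72 for Alas2, which starts haem production in developing red cells, to 0.60 for Saa3. None of the 20 had an unadjusted p under 0.05. The clock genes Arntl, Dbp and Per2 differed by 0.18 (SE 0.15), -0.19 (SE 0.15) and 0.00 (SE 0.18). Cyp1a1 and Cyp1b1, targets of the aryl hydrocarbon receptor that combustion products activate, differed by -0.01 (SE 0.93) and 0.07 (SE 0.11). Cyp1a1 varied widely, from -3.40 to -2.16 in CCF lungs and -3.89 to -1.11 in VCF lungs.

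Over all 48 lists, 0 of 651 genes passed in either direction, and 21 lists had a median below 0. An unadjusted p under 0.05 in limma was found for 27 of the 651 genes, a share close to the 3.86% of all genes. Apart from the eosinophil list, only that of Wnt and hedgehog signalling had its groups apart. Its mean was 0.09, 0.12 and 0.16 in CCF lungs, against 0.01, 0.02, 0.07 and -0.10 in VCF lungs, with 14 of 19 genes positive and a median of 0.05, which ran from -0.0168 to 0.14 over the alternative settings. Among structural lung cells the median was 0.03 for alveolar type 2 cells, -0.05 for alveolar type 1 cells, 0.06 for endothelium and -0.01 for smooth muscle, while mesothelium, the lining of the lung surface, had 7 of 9 genes positive and a median of 0.29. Muscle of the heart and fat varied from lung to lung inside both groups: the cardiac list mean was -2.18 in CCF replicate 1 and -2.69 in VCF replicate 4, and the adipose mean was 1.57 in VCF replicate 1.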

How the data were processed

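Scanner intensity values, deposited by the authors for each array, came from Agilent Feature Extraction 10.7.3.1 on one-colour (Cy3) arrays, per the file headers. The local background had been subtracted, with no normalization across arrays. Other columns deposited by the authors hold flags such as well above background. The authors' deposited table is on a log2 scale and matched log2 intensity minus a constant close to each array's 75th percentile.

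Here each array's log2 intensity was centred on its 75th percentile (43379 spots, controls left out), without spots flagged as outliers (some probes lost an array this way). Spots of 1 probe were averaged (41174 probes). The 29269 probes well above background on at least 3 of 14 arrays were tested. Symbols came from a RefSeq table (GRCm38.p6), which gave a single symbol to 24844 probes and no symbol to 16330. The array grid names another build, so only RefSeq promoters carry coordinates. Accession-only probes were left unnamed.

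All 4 groups entered 1 fit in limma 3.58.1 (R 4.3.3, data.table version 1.17.8), CCF minus VCF, two-sided, Benjamini-Hochberg adjusted p under 0.05. Figures used Python 3.11.15 and matplotlib 3.10.9. The number of arrays limits the precision, and the p-values measure the spread between these lungs.

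Named genes were the 10 of smallest p and the 5 of largest difference in each direction with all arrays apart and the brighter group well above background, 3 members of each list described in detail, and a panel of 20. The comparison, members and lists were chosen with earlier results of these data known. Genes outside the rule are said to be so, and 3 genes the rule names are not reported here. Lists are described by counts and medians, without a test.

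Replicate numbers were checked for pairing. Same-numbered CCF and VCF arrays deviated together at -0.371, 0.0515 and 0.258, so the numbers do not pair the samples. Alternatives were normexp background correction (planned on mean, run on median spot intensity, offset 50), quantile and cyclic loess normalization, the authors' table, other filters, slide, position or replicate number as a block, other priors and weights, the threshold 0.1, a plain 2-sample test, averaging all probes of a gene, and omitting arrays. Leaving out CCF replicates 2 and 3 with VCF replicate 1, all settings for the RIKEN cDNA probes, and the bounds with an array left out were added after the data were seen.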

Additional observations from a re-analysis of the deposited data

Results flagged for a closer look

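Dixon's ratio was applied to the 4 VCF lungs for 92 named genes, 48 lists and 2 array measures, and it marks about 1 in 20 groups by chance. It marked 4. Bub1 stood at -1.89 in VCF replicate 2, far from -1.35 to -1.28 in the other VCF lungs. The list means, relative to the VCF mean, were -0.36 for acute phase genes in VCF replicate 2 (others 0.11 to 0.13), -0.21 for glucocorticoid response genes in VCF replicate 3 (others 0.06 to 0.09) and 0.23 for xenobiotic genes in VCF replicate 1 (others -0.10 to -0.06). The 3 CCF lungs were too few for this rule.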

How the results depend on the processing

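No probe passed the adjusted threshold in any setting that kept all 14 arrays, with 178 to 2347 at an unadjusted p under 0.05 (178 under normexp). 1 unnamed probe passed without CCF replicate 2 (-2.06, adjusted p = 0.0297), another without RCF replicate 2 (-2.24, adjusted p = 0.00761), and Prpf38a without CCF replicates 2 and 3 and VCF replicate 1 (-1.69, adjusted p = 0.0383), a fit with CCF replicate 1 as the lone CCF array, assumed to vary like the other groups. Leaving out 1 array gave 0 to 1 probes passed. It raised the number with all arrays apart to 2139 to 4828 (701 to 1729 higher, 1438 to 3099 lower, 580 to 1006 lower RIKEN cDNA probes), since fewer arrays have to be apart, and leaving out the 3 together gave 15603 (7159 higher, 8444 lower). Normexp gave 493 (147 higher, 346 lower) and 181 lower RIKEN cDNA probes, no filter on dim probes gave 677 higher, and the well-above-background filter on all 14 arrays gave 309 lower of 2437 RIKEN cDNA probes (12.7%, against 12.2% of 4089). Lower probes outnumbered higher ones under quantile (1008 against 515) and cyclic loess (995 against 506) normalization and in the authors' table (1102 against 346). The replicate block passed 0 probes (1529 unadjusted) and is no test of pairing, since the sample titles do not say what equal numbers share.

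Normexp moved the median of all probes to -0.27, and its gene values are given relative to that. Of 2376 gene values under alternative settings, 62 turned round. Under normexp they were Zfp385b -0.18, Nxph1 -0.20, 4931414P19Rik -0.33, Proser3 -0.14, Steap3 -0.27, Il18 0.0924, Top2a -0.17, Postn 0.10, Spp1 0.0584, Eomes -0.0811, Vcan -0.19, Prdx1 0.25, Cd1d1 0.21, Mt2 0.29, Hba-a1 0.0368, Dbp 0.24, Pparg 0.29, Chil3 0.26, Cxcl1 -0.0367, Cyp1a1 0.0037, Gpnmb -0.086. Without CCF replicates 2 and 3 and VCF replicate 1 they were Saa2 -0.57, Lcn2 -0.13, Ccr2 -0.20, Gsta3 0.0145, Kel 0.13, Dntt -0.73, Hba-a1 0.30, Alas2 0.34, Dbp 0.0269, Siglecf 0.0255, Saa3 -1.13, Cxcl1 -1.34, Cyp1a1 0.65. Per2 was -0.0037 under quantile normalization, -0.0318 with slide as a block, -0.0124 with slide as a random block, -0.0087 with position as a block and -0.0165 with the replicate block, and Cyp1a1 was 0.60 with position as a block. Leaving out 1 array gave Cxcl1 -0.40 to 0.94, Col3a1 -0.10 to 0.15, Cyp1a1 -0.38 to 0.55, Gpnmb -0.30 to 0.41, Per2 -0.12 to 0.22, Col1a1 -0.0884 to 0.27, Mt2 -0.36 to 0.0203, Mup3 -0.27 to 1.94, Siglecf -1.11 to 0.15, Saa3 -0.36 to 1.36. The causes were not tested. Probes near background have differences that depend on how background is treated.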
